A study of Homo sapiens with 8 samples.

Results

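The fibrinogen gene cluster on human chromosome 4 was described by its peaks of histone H3 lysine 36 trimethylation (H3K36me3) in HepG2, a cell line from a human liver carcinoma. Its members were all deposited peaks that overlapped FGB, FGA or FGG by at least 1 bp. The control list gave 3 such peaks of 35375, and the SETD2 knockdown list gave 4 of 23488. FGA, FGB and FGG encode the alpha, beta and gamma chains of fibrinogen, the plasma protein that thrombin turns into the fibrin of a clot. Hepatocytes assemble the chains and secrete the protein, and its synthesis goes up in the acute-phase response to interleukin-6. H3K36me3 is laid down along transcribed gene bodies by SETD2, which travels with elongating RNA polymerase II, so the mark is usually low at promoters and higher further into a gene.

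The cells stably carried a lentiviral short hairpin RNA (shRNA) against SETD2 or a non-specific control shRNA. Both lines had been infected in the presence of 4 µg/mL polybrene and selected in 1 µg/mL puromycin. The 8 libraries formed 4 groups of 2 replicates: control H3K36me3, control input DNA, knockdown H3K36me3 and knockdown input DNA. The authors merged the replicates ahead of peak calling, which left 1 peak list per condition and hence neither a replicate error nor a test between the conditions. The pooled H3K36me3 libraries held 47880817 (control) and 67053273 (knockdown) filtered tags, against 67158956 and 69095038 for the pooled inputs. Neither SETD2 nor the liver identity of the cells was measured here, since no expression values and no hg19 positions of other genes were used. Tag density is given as tags per kb of peak per 1000000 filtered tags, with exact Poisson 95% intervals that cover counting error only.

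The 3 genes lie within 49.8 kb of chromosome 4. In hg19, FGB runs on the plus strand over chr4:155484132-155493915 (9.78 kb). FGA runs on the minus strand over chr4:155504280-155511897 (7.62 kb), and FGG, also on the minus strand, over chr4:155525286-155533902 (8.62 kb). FGB and FGA therefore end facing each other across 10.4 kb, while FGG ends 13.4 kb from the start of FGA. Exons, introns and untranslated regions on hg19 were not used here, so peaks are placed by their distance from the start and end of transcription.

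No peak of either list reached the window from 250 bp before to 50 bp after any of the 3 transcription starts. The sequences before the starts are shown because they hold the promoters of genes whose bodies, but not starts, lay under peaks. The 250 bases before each start are given 5′ to 3′ on the gene's strand, from RefSeq on GRCh38.p14, and all 3 genes matched by symbol. They are chr4:154562730-154562979 (plus strand) for FGB, chr4:154590743-154590992 (minus strand) for FGA and chr4:154612657-154612906 (minus strand) for FGG. For FGB, which has 2 entries, the outermost start was used. Bases are counted from the RefSeq start, which need not be the start of the hg19 span used for peaks. The RefSeq gene is 8521 bp long for FGG against 8617 bp on hg19, 9828 against 9784 bp for FGB and 7617 against 7618 bp for FGA. Part of a printed stretch, the one before FGG above all, may therefore lie inside the hg19 span. Capitals mark CTGGGA, the core of the interleukin-6 response element of acute-phase genes, and GTTAAT, a half-site of the liver factor HNF1, on either strand (TCCCAG and ATTAAC are their reverse complements).
FGB: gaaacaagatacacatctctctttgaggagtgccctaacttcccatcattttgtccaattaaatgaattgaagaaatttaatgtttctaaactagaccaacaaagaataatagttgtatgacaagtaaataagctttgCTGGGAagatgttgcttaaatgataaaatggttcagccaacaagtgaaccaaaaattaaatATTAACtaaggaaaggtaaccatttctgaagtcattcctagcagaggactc
FGA: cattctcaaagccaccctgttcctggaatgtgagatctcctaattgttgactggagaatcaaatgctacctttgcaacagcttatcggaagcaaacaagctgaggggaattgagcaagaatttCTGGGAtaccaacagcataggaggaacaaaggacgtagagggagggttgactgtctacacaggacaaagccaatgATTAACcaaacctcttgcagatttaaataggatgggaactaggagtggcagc
FGG: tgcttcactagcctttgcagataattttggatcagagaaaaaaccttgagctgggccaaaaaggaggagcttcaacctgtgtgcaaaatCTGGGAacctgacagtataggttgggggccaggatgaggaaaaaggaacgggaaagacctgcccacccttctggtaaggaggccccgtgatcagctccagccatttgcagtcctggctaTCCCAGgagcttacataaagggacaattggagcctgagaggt
CTGGGA lay on the gene strand in all 3, starting 112 bases before the RefSeq start of FGB, 127 before FGA and 161 before FGG, and FGG held a second match, TCCCAG, at 42 bases. Of 27305 genes with such a window, 33.0% held CTGGGA on either strand in any of their windows. All shares of genes given here count a gene in this way, while each fibrinogen gene was searched in a single window. The HNF1 half-site was found in FGB and FGA, as ATTAAC at 51 and 52 bases before the start, and not in FGG; 7.50% of genes held it. Of the 4 motifs searched, the other two were the CCAAT box, with the letters CCAAT, and the TATA box, with the letters TATAAA, both searched on either strand. The former was found in all 3 windows and in 37.0% of genes, and the latter in none of the 3 and in 3563 of the 27305 genes. No match overlapped another in these windows. G and C made up 33.2% of the FGB window, 45.2% of FGA and 50.8% of FGG, against a median of 58.0% over all 35116 windows. These matches describe letters only, and no binding was measured.

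In the control cells each fibrinogen gene carried a single H3K36me3 peak that lay mostly within its body. FGG, the gamma-chain gene, had the most tags: 1256 in a peak of 9.05 kb (chr4:155524220-155533268), a density of 2.90 (2.74 to 3.06). FGA, the alpha-chain gene, had 704 tags in 5.62 kb (chr4:155505852-155511470), a density of 2.62 (2.43 to 2.82). FGB, the beta-chain gene, had 595 tags in 7.26 kb (chr4:155485346-155492607), a density of 1.71 (1.58 to 1.85). All 3 were above the median density of 1.101 over the control list and of 1.06 over its 1732 peaks on chromosome 4. By density they ranked 32 (FGG), 46 (FGA) and 199 (FGB) on that chromosome.

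The densities of FGA and FGB in the control differed beyond counting error, and so did those of FGG and FGB. FGA was 1.53 times as dense as FGB (exact conditional binomial 95% interval 1.37 to 1.71) and FGG 1.69 times (1.54 to 1.87). FGG was 1.11 times as dense as FGA (1.01 to 1.22), a difference at the edge of counting error. The authors' fold enrichment over input ordered the genes differently, with FGA at 9.92, FGG at 8.24 and FGB at 7.46, against a list median of 4.88. FGA had the highest value and FGG the most tags, so which of these genes ranked first depended on the measure. The false discovery rate (FDR) that the authors' caller gave was 0% for all 3, as for 18.2% of the control list.

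In the SETD2 knockdown all 3 genes still carried peaks, each lying inside the control peak of that gene, at a lower density. These 4 peaks had FDRs of 59.6% to 82.0%, and none passed a limit of 5%, which 5.30% of the knockdown list did. Across the whole control list, 39.5% of peaks had a knockdown peak over them, and on chromosome 4, 31.0%. FGG held 590 tags in 7.72 kb (chr4:155524769-155532492), a density of 1.14 (1.05 to 1.23). FGA held 339 tags in 4.75 kb (chr4:155506298-155511042), a density of 1.07 (0.955 to 1.19). Both stood above the knockdown list's median of 0.907, though less far above it than in the control. By density FGG exceeded 81.8% and FGA 75.1% of the knockdown list, against 96.5% and 95.3% of the control list.

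FGB was the gene whose control peak was broken up in the knockdown, as 26.5% of the control peaks with a knockdown counterpart were. The peak nearer the start held 159 tags in 2.64 kb (chr4:155486138-155488777), a density of 0.898 (0.764 to 1.05). The peak nearer the end held 102 tags in 1.94 kb (chr4:155490393-155492335), a density of 0.783 (0.638 to 0.95). They were 1615 bp apart, and the summit of the control peak, 4.99 kb from the start, fell in that gap. Together they had a density of 0.849 (0.749 to 0.959), and the interval includes the median of the knockdown list.

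**Figure D1:**
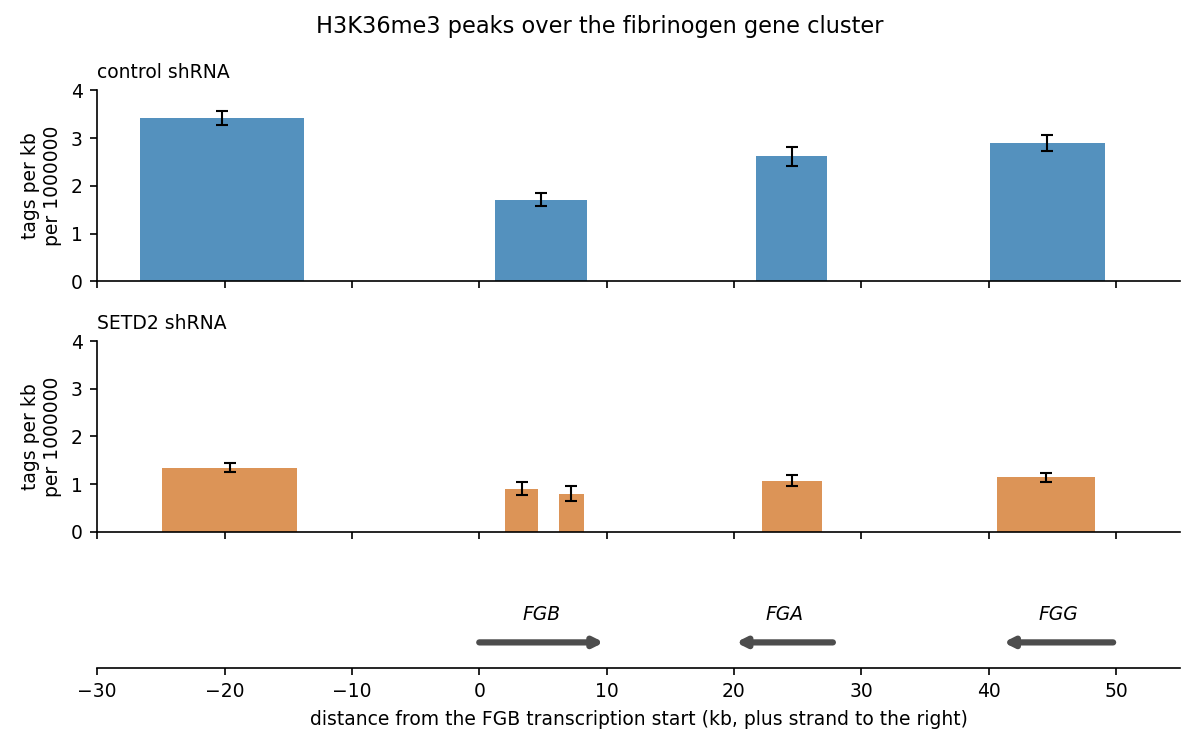
H3K36me3 peaks over the fibrinogen cluster and the next peak on the FGB side. Each bar is 1 peak, its width the peak's extent in kb from the FGB start and its height the tags per kb per 1000000 filtered tags, with exact Poisson 95% intervals; arrows show each gene from start to end. The 3 control peaks (upper row, 1.71 to 2.90) stand above the 4 knockdown peaks (middle row, 0.783 to 1.14).

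Set against each other, the knockdown densities were lower by a factor of 2.01 to 2.54. FGG went from 2.90 to 1.14, which is 2.54-fold lower (exact conditional binomial 95% interval 2.31 to 2.81), or -1.35 on the log2 scale. FGA went from 2.62 to 1.07, 2.46-fold lower (2.15 to 2.80; log2 -1.30). FGB went from 1.71 to 0.849, 2.01-fold lower (1.74 to 2.34; log2 -1.01). Each interval describes 2 pooled libraries and not the spread between cultures, and the peaks of each list were measured within their own limits.

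All 3 genes passed a limit of 1.5-fold lower, as did 59.2% of the 13963 control peaks with a knockdown counterpart and 73.4% of the 537 on chromosome 4; 0.165% were 1.5-fold or more higher. All 3 genes were also 2-fold or more lower, FGB only just (2.01-fold, interval 1.74 to 2.34), as were 13.1% of the 13963 peaks. The median of those peaks was 1.58-fold lower over the genome (log2 -0.66) and 1.69-fold lower on chromosome 4 (log2 -0.75). A more negative ratio than that of FGG was found in 1.93% of them over the genome, than that of FGA in 2.56%, and than that of FGB in 12.5%. Only 39.5% of the 35375 control peaks had a counterpart. The others have no ratio, so these shares do not rank the fibrinogen genes among all control peaks. Densely marked control peaks in general had the lower ratios. Of the 3637 counterparts with a control density between those of FGB and FGG, 90.7% passed the same limit, with a median log2 ratio of -0.88 (quartiles -1.03 and -0.74). Within that set 3.05% had a more negative ratio than FGG, 4.37% than FGA and 28.2% than FGB. Control density enters the ratio itself, so part of this relation is built in.

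**Figure D2:**
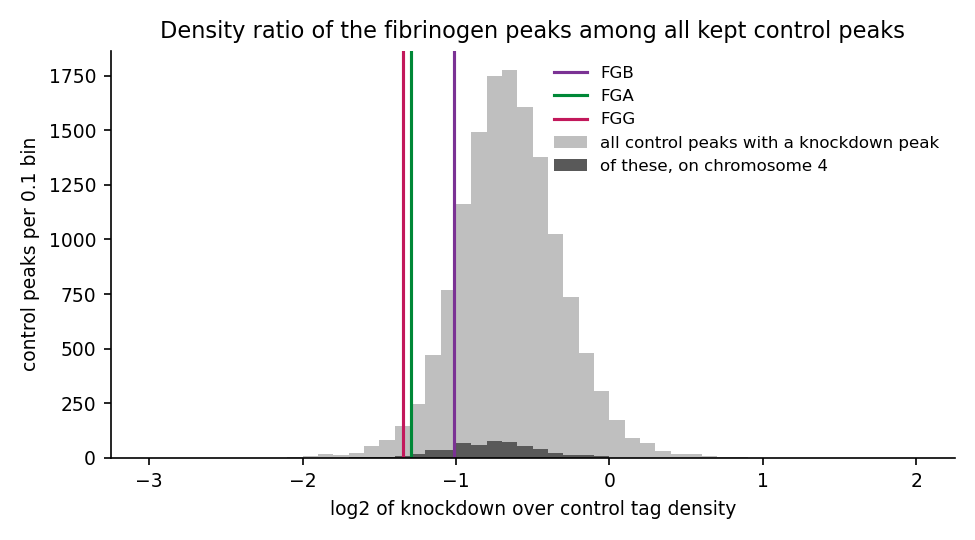
Distribution of the log2 ratio of knockdown over control tag density (x axis) as the number of control peaks per bin of 0.1 (y axis), for all control peaks with a knockdown peak over them (light) and those on chromosome 4 (dark). Vertical lines mark FGG (-1.35), FGA (-1.30) and FGB (-1.01), all left of the median of -0.66.

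Over called peaks alone, with the gap in FGB left out, the spread between the genes was narrower in the knockdown. FGG was 1.34 times as dense as FGB (1.16 to 1.56), against 1.69 in the control, and FGA was 1.25 times as dense (1.06 to 1.48), against 1.53. The knockdown-to-control ratio of FGG was 0.792 times that of FGB (95% interval 0.664 to 0.943, from the counting error of the 4 tag counts). For FGA over FGB it was 0.820 (0.675 to 0.997), and for FGG over FGA 0.965 (0.820 to 1.14), which includes 1. With peaks within 3000 bp merged, so that the gap counts as peak, the ratio of FGB was at least 0.367, against 0.407 for FGA and 0.393 for FGG. The tags inside the gap are not in the list, so this lower bound does not place FGB above or below the other genes. It also leaves unsettled whether the spread narrowed once the gap is counted. With the density outside peaks taken off, the ratios lay closer together, at 0.347 (FGB), 0.306 (FGA) and 0.301 (FGG).

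**Figure D3:**
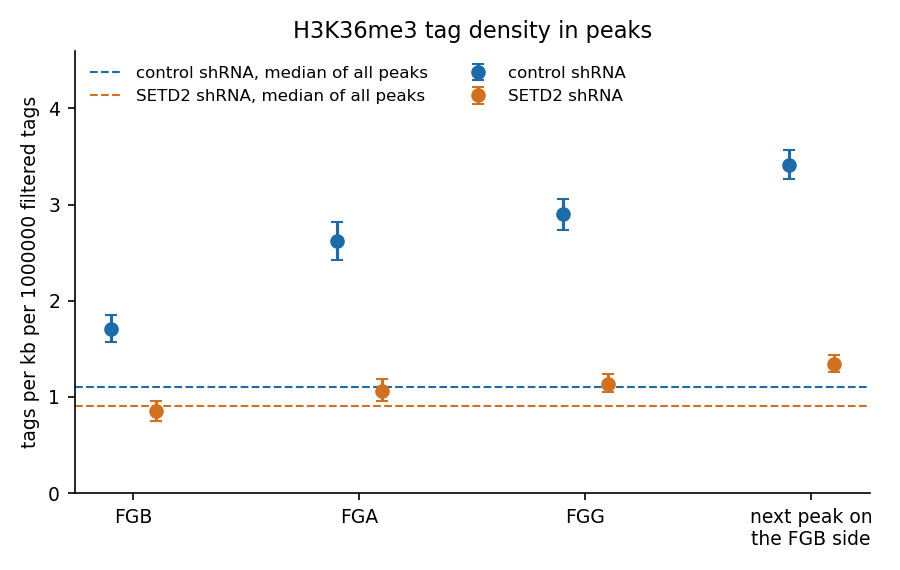
Tag density (tags per kb per 1000000 filtered tags) of the peaks over each fibrinogen gene and of the next peak on the FGB side, in control (blue) and SETD2 knockdown (orange) cells. Points are pooled libraries with exact Poisson 95% intervals, and dashed lines are the medians of each full list (1.101 and 0.907). The knockdown values of FGB, FGA and FGG lie between 0.849 and 1.14, nearer to the median of their list than the control values are to theirs. FGA and FGG stay above the median in both lists.

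Along the genes, peaks covered the middle of each body in the control list and drew in from the edges in the knockdown list. In the knockdown the middle of FGA and FGG stayed covered, while bin 6 of 10 equal bins of FGB had 0% cover. Control peaks covered 92.6% of FGG, 74.2% of FGB and 73.8% of FGA. Knockdown peaks covered 83.6% of FGG, 62.3% of FGA and 46.8% of FGB. Of each control peak, the knockdown peaks covered 85.4% in FGG, 84.4% in FGA and 63.1% in FGB. The median was 68.5% over all control peaks with a counterpart and 54.4% over those on chromosome 4.

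On the side of the start, the control peak began 427 bp into FGA, 634 bp into FGG and 1214 bp into FGB. In the knockdown these distances were 855, 1410 and 2006 bp, so the marked stretch began 428 bp further in for FGA, 776 bp for FGG and 792 bp for FGB. On the side of the end, the knockdown peak stopped short of the control peak by 272 bp in FGB, 446 bp in FGA and 549 bp in FGG. FGG was the gene whose peak ran past its end, by 1066 bp in the control and 517 bp in the knockdown. In FGB and FGA the control peaks stopped 1308 and 1572 bp before the end, and the last of 10 equal bins of both genes was uncovered in either list. Peak edges depend on depth and on the calling limit as well as on the mark, and their part in these shifts was not tested.

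The highest point of each peak, the summit, stayed near the same place in FGG, at 3.28 kb from the start in the control and 3.45 kb in the knockdown. In FGA it lay at 3.26 and 4.41 kb. In FGB the 2 knockdown summits, at 2.85 and 7.49 kb, lay on either side of the control summit. With 1 pooled list per condition, no error can be put on these positions.

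**Figure D4:**
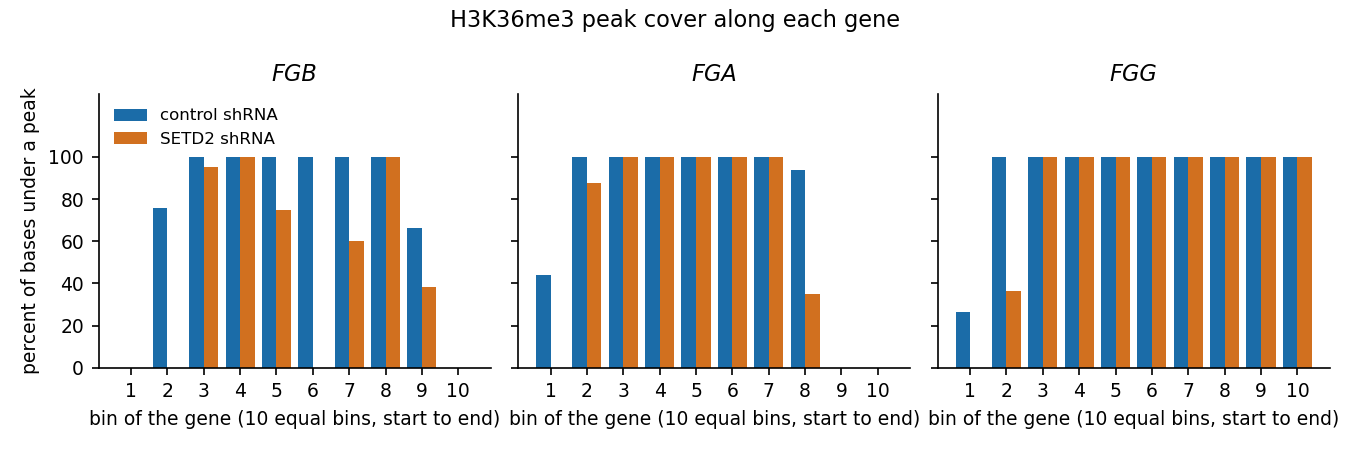
Share of bases under an H3K36me3 peak (percent, y axis) in 10 equal bins of FGB, FGA and FGG from transcription start to end (x axis), for control (blue) and SETD2 knockdown (orange) lists. In the knockdown the first bin is uncovered in all 3 genes and bin 6 of FGB falls in the gap between its 2 peaks; in FGG cover reaches the gene's end in both lists.

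The stretches between the genes held no called peak apart from the overrun at FGG. Tags between peaks are not listed, so the mark itself was not measured there. Between FGB and FGA, whose ends face each other, 0 bp lay under a peak in either list. Between FGA and FGG, 7.96% of the bases in the control and 3.86% in the knockdown were covered, all of it from the peak that ran past the end of FGG. The cluster thus appeared as separate domains, with a single peak per gene in the control and 2 peaks over FGB in the knockdown. Peaks covered 44.1% of the cluster's length in the control and 34.3% in the knockdown.

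Beyond FGB, the next control peak lay 13.8 kb away (chr4:155457488-155470369). In the RefSeq table on GRCh38.p14, PLRG1, which encodes a spliceosome protein, is the next protein-coding gene on that side and LRAT, a retinol-esterifying enzyme, the next beyond FGG; no peak was assigned to either. That neighbouring peak had a density of 3.41 (3.27 to 3.56) in the control and 1.35 (1.26 to 1.43) in the knockdown, 2.54-fold lower (2.35 to 2.74). The interval overlaps those of FGG and FGA, and lies just above that of FGB. Its knockdown peak kept an FDR of 0.35%, unlike any over the fibrinogen genes. Beyond FGG, no peak was called for 2159 kb in the control and 2227 kb in the knockdown.

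By the authors' own measures, the knockdown peaks over the fibrinogen genes had low fold enrichments and high FDRs. Their fold enrichments were 3.14 and 3.55 (FGB), 3.50 (FGA) and 3.30 (FGG), all below the knockdown median of 3.71. Their FDRs were 74.9% and 82.0% for FGB, 59.6% for FGA and 68.7% for FGG, around the list's median of 68.9%. Under an FDR of 5% or less all 3 control peaks remained, beside 50.5% of the control list, and none of the 4 knockdown peaks did, beside 5.30% of the knockdown list. Of the 3552 control peaks with a fold enrichment from 7.46 to 9.92, the range of the 3 fibrinogen peaks, 83.5% had some knockdown peak over them and 2.51% had one with an FDR of 5% or less. Of those with a counterpart, 76.0% were 1.5-fold or more lower in density. With a fold enrichment of 5 or more, too, no knockdown peak over these genes was left.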

How the data were processed

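H3K36me3 ChIP-seq peaks were analysed from 2 lists, each made from 2 pooled replicates, which the labels do not say were grown separately. The submitters' processing notes name hg19, FastQC 0.11.5 and Bowtie 1.1.2. The authors called peaks against pooled input with MACS 1.4.2 at a p-value limit of 1e-05, per the file headers. The deposited tag counts are whole tags per peak after duplicate removal. The deposited score is the log10 of the caller's p-value times minus 10, the deposited fold enrichment is the ratio over local input, and the deposited FDR is in percent.

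Gene spans on hg19 were given with the choice of the cluster, and the members and settings were chosen with earlier results of these data known. The named genes were FGB, FGA and FGG, with the nearest peak on each side. Knockdown peaks overlapping a control peak by 1 bp or more had their tags and lengths summed, and density ratios of 1.5-fold or more were called. Ratio intervals are exact conditional binomial 95% intervals; those of ratios between genes over both lists use a normal approximation on the log scale. Coagulation, acute-phase and marker genes that had been listed were not used here, since the gene table was on GRCh38.p14. Steps were tested on simulated data. The simulated knockdown peaks were trimmed control peaks, so none was lost or split and no calling limit acted on them. Calculations used Python 3.11.15, pandas 2.3.3, NumPy 2.4.6, SciPy 1.17.1 and matplotlib 3.10.9.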

Additional observations from a re-analysis of the deposited data

How the results depend on the processing

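In all 17 alternative values of the knockdown-to-control density ratio the 3 genes stayed 1.5-fold or more lower. FGB missed a limit of 2-fold lower with a score of 100 or more (ratio 0.525) and with all tags as depth (0.502). The control list kept 3 peaks over the genes in each setting. In the knockdown list 0 peaks and 0% of FGB, FGA and FGG were left with an FDR of 5% or less. The shorter deposited lists gave the same counts and cover over these genes as that limit. With a fold enrichment of 5 or more, again 0 knockdown peaks were left, so no ratio could be had in these settings. With peaks required to cover at least 50% of the gene, 2 knockdown peaks were left, 1 each on FGA and FGG. A score of 100 or more dropped the FGB peak nearer the end, which left 27.0% of FGB covered. Merging peaks within 3000 bp gave FGB 63.3% cover, a density of 0.628 and a ratio of 0.367 in the knockdown, both lower bounds, since tags between the merged peaks are not listed. Spans extended by 2000 bp were covered to 52.7% (FGB), 48.4% (FGA) and 71.7% (FGG) by control peaks and to 33.2%, 40.8% and 61.2% by knockdown peaks. With all tags as depth, control densities were 1.49, 2.27 and 2.52 and knockdown densities 0.746, 0.936 and 1.00. With the density outside peaks taken off (0.235 in the control, 0.337 in the knockdown), the ratios were 0.347 (FGB), 0.306 (FGA) and 0.301 (FGG). Dividing knockdown tags by the control peak's length, a setting chosen after seeing the data that gives a lower bound, gave 0.313, 0.344 and 0.335. Under reciprocal overlap of 50%, FGB had no pair. No paired analysis was possible because the lists hold merged replicates, and for the same reason none could be left out in turn.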

Other observations

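The scores of the 4 knockdown peaks over the fibrinogen genes, which are minus 10 times the log10 of the caller's p-value, were 122.41 and 87.27 in FGB, 194.55 in FGA and 153.03 in FGG. They did not follow the number of tags, since the peak over FGG held 590 tags and that over FGA 339. The lowest score at an FDR of 5% or less was 939.74 in the knockdown list and 227.88 in the control list. Of all knockdown peaks, 2979 had tags and fold enrichments within the ranges of these 4 peaks (102 to 590 tags, 3.14 to 3.55), and their median score was 133.47, with a lowest FDR of 18.4%. No peak with tags and fold enrichment in those ranges therefore passed an FDR of 5% in the knockdown list.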
